A study of Drosophila mojavensis with 95 samples.

Results

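The 100 transcripts described here were those whose level was lower after 9 h of desiccation than before it, and lower again after 18 h, by the most in whichever of the 2 steps was smaller. They were chosen from 14528 transcripts measured in whole bodies of virgin, wild-type females of Drosophila mojavensis. Arrays were averaged within each of 24 groups (population by rearing cactus by hour), the 8 combinations of population and cactus were averaged with equal weight at 0, 9 and 18 h, and transcripts were ranked by the smaller of the 2 steps. The values over time therefore chose the members, and they are given below as a description without a test.

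The flies came from 4 populations. San Quintin and Punta Prieta lie in Baja California, and Organ Pipe National Monument (spelled Manument in the labels) and Punta Onah lie on the Sonoran side. Larvae were reared on media made from organ pipe or agria cactus, and females were held in desiccation for 0, 9 or 18 h (31, 31 and 33 arrays). Each group held 3 to 5 one-colour arrays, named as replicates in the labels, which do not say whether these came from separate cultures; p-values then measure only the spread between these arrays. The labels give a different stock number for each of the 95 arrays, so they do not settle whether a population stands for a single line. No arrays of flies kept for 9 or 18 h without desiccation were used here, so hours of desiccation cannot be told apart from hours spent in the assay or from the hour of the day.

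Drosophila mojavensis breeds in rotting cactus in the deserts of North America and is among the more desiccation-tolerant members of its genus. Insects that lose water slowly do so through a waterproof layer of cuticular hydrocarbons, control of the spiracles and a lowered metabolic rate, and they draw on stored carbohydrate and lipid while they cannot feed. RNA of a whole female holds much from the ovary, fat body, gut and muscle, and in such RNA fewer cells of a type and less RNA per cell cannot be told apart. The rows carry FlyBase transcript identifiers. None of them occurs in the reference gene table of the species that was used here, so 0 of the 100 could be given a gene name, a role or a place in the genome, the tissue label could not be checked against marker genes, and members are named by identifier only.

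Values are log2 levels from the deposited table, and a difference of 1 is a doubling of the signal. Array medians ran from 10.17 to 10.40. Arrays of a group also varied along a common direction, the first component of the deviations from group means, which carried 41.8% of the variance inside groups and is referred to as the shared axis. Of the members, 96 loaded on it with a positive sign, against 59.6% of all transcripts. Its mean score over arrays was 13.7 at 0 h, -4.38 at 9 h and -8.76 at 18 h, so it moved with time in the same direction as the members, and its values are given beside the results it touches. Over the 100 transcripts that separated the 4 populations most strongly, the 0 h array numbered 4 of Punta Prieta on organ pipe did not match its labelled population: its mean absolute distance was 0.949 to the other Punta Prieta groups and 0.281 to those of Punta Onah. Of the 95 arrays, 17 lay nearest to another population, this one and 16 from Baja California that lay nearest to the other population of that region, array 3 of the same group among them. Most of these 16 came from single hours: all 7 San Quintin arrays at 9 h lay nearest to Punta Prieta, and 7 of 9 Punta Prieta arrays at 18 h lay nearest to San Quintin. Its part in the results between these populations was not tested. Arrays 3 and 4 of Punta Prieta on organ pipe at 0 h are called the doubted arrays, and regional and San Quintin against Punta Prieta values without them stand beside the main ones below. Array 3 was less clear than array 4, at 0.359 from Punta Prieta and 0.266 from San Quintin. Arrays that were kept had like distances, such as San Quintin organ pipe array 1 at 9 h, at 0.361 from San Quintin and 0.251 from Punta Prieta.

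All 100 members were lower at both steps by construction, as were 35.2% of all transcripts. Their median change was -0.45 between 0 and 9 h and -0.37 between 9 and 18 h, against 0.01 and -0.01 over all transcripts. Between 0 and 18 h the change ran from -3.54 to -0.58 with a median of -0.87, a level 1.82-fold lower. No call was made on these contrasts, since the rule used them. With the shared axis taken out as a covariate, the median change at 18 h was -0.62 and both steps stayed below 0 in all 100.

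The list has no natural edge. FBtr0164291, the last member in rank, had a smaller step of 0.280, and FBtr0168418, the first transcript outside the list, had 0.279. The smaller step had a median of 0.34 over the members and of 0.26 over the next 100 transcripts in rank. The same rule turned round, for transcripts higher at each step, gave 100 transcripts with a smaller step of 0.28 to 1.16, so the 100 rising transcripts had steps of a like size.

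**Figure D1:**
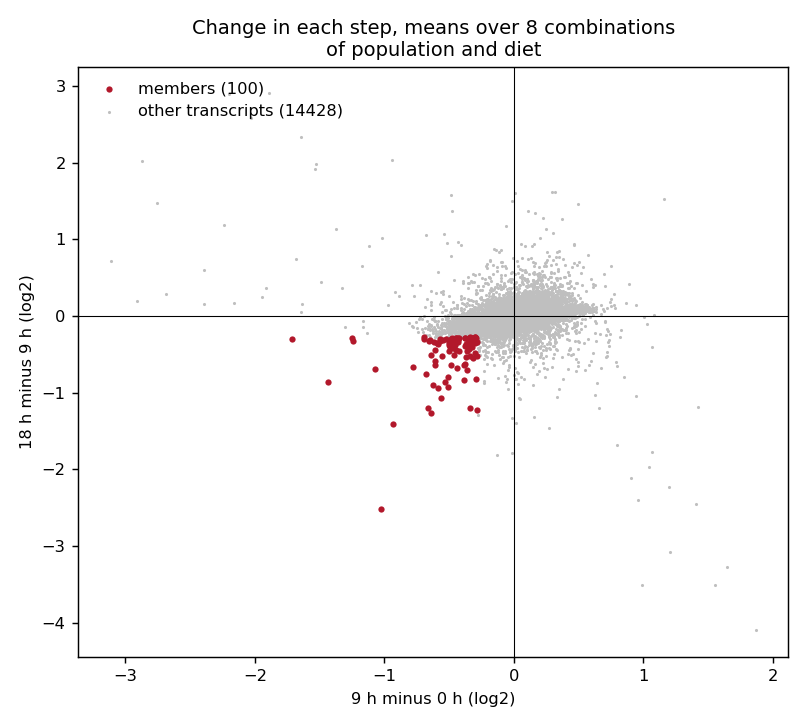
Change between 0 and 9 h (horizontal axis, log2) against change between 9 and 18 h (vertical axis, log2) for each transcript, as means over the 8 combinations of population and cactus. The 100 members (red) fill the lower left corner with both changes at or below -0.28, and FBtr0166447 lies lowest among them at -2.51 in the second step.

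At 18 h, 31 members were at least 2-fold lower than at 0 h. The table as a whole held 68 such transcripts, 0.468% of it. The median member had reached 51.8% of its 18 h fall by 9 h, with a range of 18.9% to 85.1%; for 56 members this share lay between 40% and 60%. The first step was the larger in 59 members. Only 4 members had every 18 h array below every 0 h array, a pattern shown by 0.0688% of all transcripts, and none had every 9 h array below every 0 h array.

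FBtr0166447 led the ranking. Over the arrays, its lowest, median and highest levels were 10.77, 11.56 and 12.27 at 0 h, 9.46, 10.43 and 11.51 at 9 h, and 7.56, 7.95 and 8.77 at 18 h. The 18 h arrays lay apart from all others, while the 9 h and 0 h arrays overlapped. The means put the level 11.7-fold lower at 18 h than at 0 h, and both steps were downward in all 8 combinations. Its larger step came late, with 29.1% of the fall reached by 9 h.

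FBtr0167057, ranked second, spread far more. Its levels ran from 7.63 to 11.41 at 0 h (median 10.32), from 7.34 to 10.86 at 9 h (median 8.87) and from 6.79 to 8.86 at 18 h (median 7.52). The 3 ranges overlapped. In Baja California its group-mean level was 10.49 at 0 h, 10.06 at 9 h and 7.60 at 18 h, so most of its fall lay after 9 h there. In Sonora the means were 9.46, 8.03 and 7.65, with most of the fall before 9 h. The 9 h change differed by 1.00 ± 0.280 (SE) between the regions, which did not pass the test (adjusted p = 0.114 by limma).

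**Figure D2:**
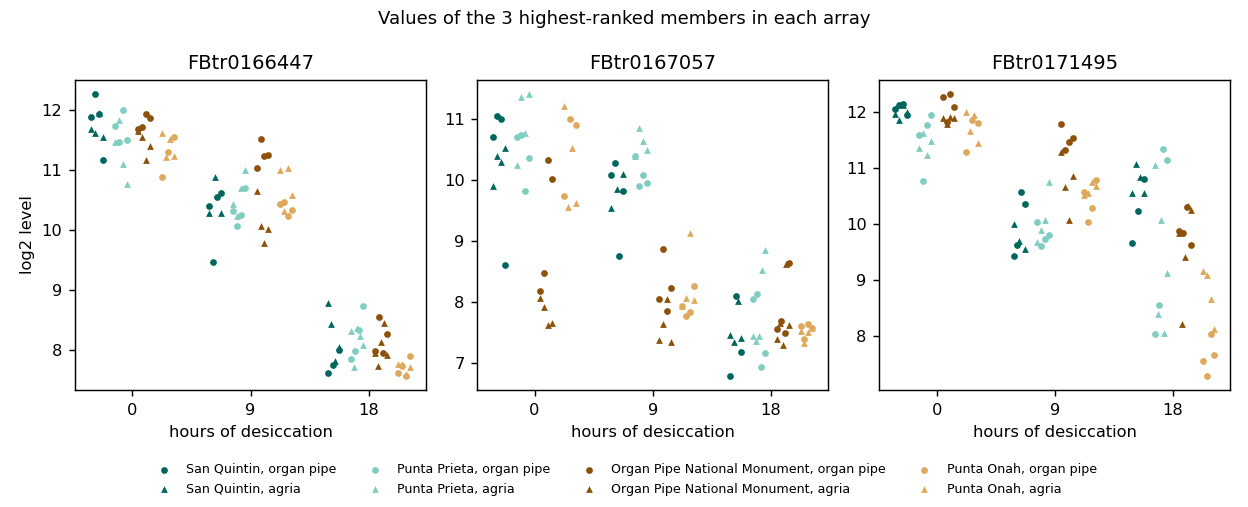
Log2 level of the 3 highest-ranked members in each array at 0, 9 and 18 h, with San Quintin, Punta Prieta, Organ Pipe National Monument and Punta Onah side by side at each hour (circles, organ pipe; triangles, agria). FBtr0166447 lies lower at each later hour in all 4 populations, FBtr0167057 stays near 10 at 9 h in Baja California and near 8 in Sonora, and FBtr0171495 spreads from 7.29 to 11.34 at 18 h.

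The progressive course was seen in most single combinations of population and cactus, but not in all. The rule averaged these same combinations, so the counts describe the members and do not test their course. The 18 h mean was below the 0 h mean in all 8 combinations for 95 members and in 7 for the other 5. Both steps were downward in all 8 for 34 members, in 7 for 27, in 6 for 18, and in 2 to 5 for the remaining 21. The first step was downward for 99 members in San Quintin on organ pipe and 94 on agria, for 98 and 65 in Punta Prieta, for 91 and 93 in Organ Pipe National Monument, and for 100 and 95 in Punta Onah, where the organ pipe count comes first in each pair. Between 47.7% and 62.7% of all transcripts were lower at 18 h than at 9 h in these combinations, and between 44.1% and 53.5% were lower at 9 h than at 0 h.

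The medians of the single combinations split the fall between the steps in different ways; the tests of the 9 h change between regions and, inside each population, between cacti called 0 members (limma; smallest adjusted p = 0.114 for the regions). In Punta Prieta on agria the median member changed by -0.08 up to 9 h and by -0.57 afterwards. In Organ Pipe National Monument on agria the order was turned round, with -0.67 up to 9 h and -0.10 afterwards, and 70 members were lower at 18 h than at 9 h. San Quintin on organ pipe also changed early, by -0.75 and then -0.29. The median 18 h change ran from -1.23 in Punta Onah on organ pipe to -0.51 in San Quintin on agria; Punta Onah had the lowest median of the 4 populations on each cactus.

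**Figure D3:**
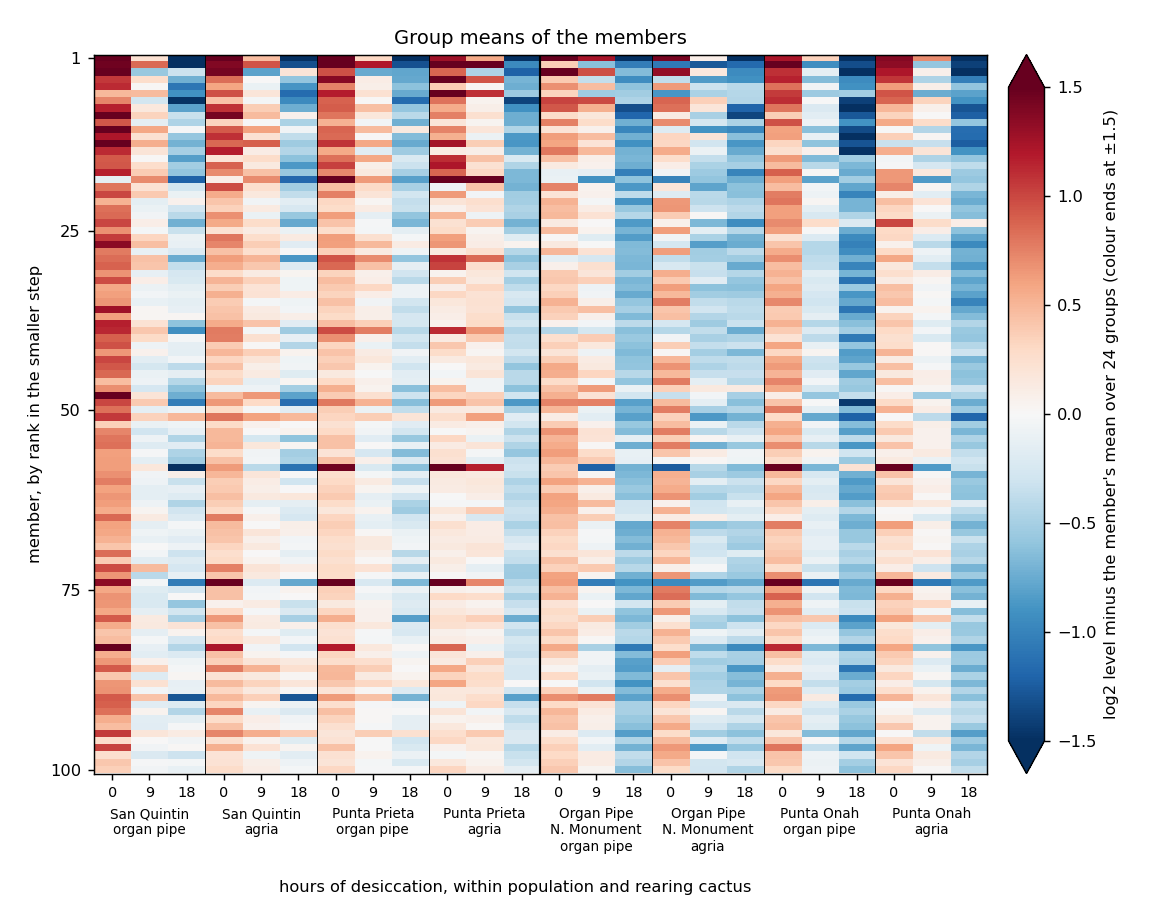
Group means of the 100 members (rows, by rank) in the 24 groups (columns, 0, 9 and 18 h within each combination of population and cactus), as log2 level minus the member's mean over all groups. Within each single combination most rows pass through the colour scale step by step, but only 34 rows do so in all 8. Punta Prieta on agria stays high at 9 h, and Organ Pipe National Monument on agria is already low at 9 h.

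The mean over the 100 members gives 1 value per array. It ran from 9.98 to 10.84 at 0 h (median 10.34), from 9.26 to 10.41 at 9 h (median 9.91) and from 8.78 to 9.76 at 18 h (median 9.41). No 18 h array reached the lowest 0 h array, while the 9 h arrays overlapped with both neighbours. The members were chosen for their fall across these same arrays, so the gap is a description only. Within groups the SD of this mean was 0.18. In Organ Pipe National Monument on agria, the 9 h arrays (9.26 to 9.79) overlapped with those at 18 h (8.85 to 9.72). In Punta Prieta on agria, the 9 h arrays (9.95 to 10.41) overlapped with those at 0 h (10.06 to 10.64). The shared axis scored -25.0 on average at 9 h in the first of these groups and 5.63 in the second; its part in the timing was not tested.

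**Figure D4:**
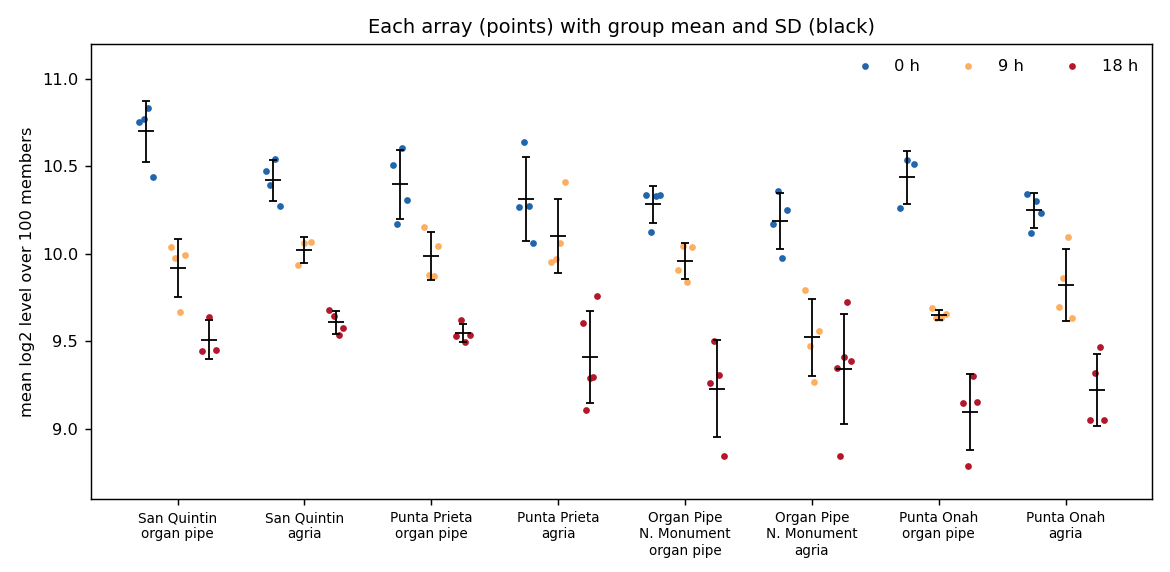
Mean log2 level over the 100 members in each array (points), by population, cactus and hour; black marks give the group mean and SD over 3 to 5 arrays. The 0 h arrays lie between 9.98 and 10.84 and the 18 h arrays between 8.78 and 9.76, with no overlap. The members were chosen for their fall across these same arrays.

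Agria-reared flies from Organ Pipe National Monument had low levels of some members before desiccation. Their 0 h group mean was already below the mean 9 h level over all flies in 21 of the 100 members, and in 8 of these it was at least 1 log2 unit below the mean of the other 0 h groups. Shares of all transcripts for these 2 counts are not given, so they only describe the members. The widest gap was that of FBtr0166945, a transcript at 7.89 in this group and at 10.40 on average in the other 0 h groups, and next came FBtr0166497 at 9.47 and 11.97; these 2 were picked for their values here. In 4 members the 18 h mean of this combination was no lower than its 0 h mean. Of the 8 groups at 0 h, this one was the lowest for 24 members, against 7.83% of all transcripts, while Punta Prieta on agria was the lowest for 47 members, against 30.7%. Over all 100 members the 0 h arrays of Organ Pipe National Monument did not stand apart, with means of 10.12 to 10.34 on organ pipe and 9.98 to 10.36 on agria. Set against the organ pipe flies of the same population at 0 h, in a comparison added after these values had been seen, 0 members were called (limma, smallest adjusted p = 0.115; 14 with an unadjusted p under 0.05), where 0.0964% of all transcripts were.

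The members were not ranked by comparisons between regions, populations or cacti. These comparisons were tested in the limma fit of all 24 groups, with p-values adjusted over the whole table. The rule averaged over the same groups, so a large fall in a single population can bring a member into the list. Tests of such a member between populations or regions are then not independent of its choice. FBtr0161675 had both steps downward only in Punta Prieta, at means of 12.06, 10.97 and 8.79 at 0, 9 and 18 h. Averaged over the 3 hours, 55 members were higher and 3 lower in Baja California than in Sonora, where 18.1% of all transcripts were called higher and 16.7% lower. The median difference of the members was 0.17, against -0.0042 over all transcripts. Without the doubted arrays 52 were higher and 3 lower. FBtr0167057 differed most, with a mean of 9.39 in Baja California against 8.38 in Sonora and a gap of 1.01 ± 0.113 (SE; adjusted p = 1.12e-11 by limma). FBtr0166224 had 10.79 and 9.84, a gap of 0.95 ± 0.0710 (adjusted p = 2.84e-19 by limma). On the other side, FBtr0169533 averaged 10.49 in Baja California against 10.88 in Sonora, apart by -0.39 ± 0.0744 (adjusted p = 1.57e-05 by limma), and FBtr0169104 differed by -0.20 ± 0.0432 (adjusted p = 8.72e-05 by limma).

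The regional difference was not the same at each hour. At 0 h, 34 members were higher and 1 lower in Baja California (7.3% and 6.69% of all transcripts), and the median difference was 0.02. At 9 h the counts were 33 and 3 (8.99% and 6.25%) with a median of 0.16, and at 18 h they were 61 and 5 (22.8% and 25.6%) with a median of 0.33. Of the members called at 18 h, 50 had not passed at 0 h, and 16 were called at both hours in the same direction. The same overlap over all transcripts is not given. Calls over the whole table were also more frequent at 18 h than at 0 h, so these 2 counts are not a trait of the members. Without the 2 doubted Punta Prieta arrays the counts at 0 h were 33 higher and 2 lower, and the median changed sign, to -0.03.

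At 0 h, FBtr0161675 and FBtr0167430 were the furthest above Sonora. FBtr0161675 had a lowest, median and highest level of 8.35, 9.92 and 13.44 in Baja California and of 8.22, 9.79 and 10.82 in Sonora, so the ranges overlapped widely; the difference of group means was 1.21 ± 0.235 (adjusted p = 8.01e-05 by limma), and 1.64 without the 2 doubted Punta Prieta arrays. The gap of FBtr0161675 was not shared by the populations of a region. Its mean was 12.06 in Punta Prieta but 9.52 in San Quintin, below the 10.17 of Punta Onah. Organ Pipe National Monument had 8.98. FBtr0167430 had 10.16, 10.78 and 11.39 in Baja California and 9.03, 9.57 and 10.37 in Sonora, with little overlap and a difference of 1.05 ± 0.0956 (adjusted p = 2.82e-14 by limma). The only member called lower at 0 h was FBtr0165055, at -0.26 ± 0.0901 (adjusted p = 0.0381 by limma).

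At 9 h, FBtr0167057 had 8.75, 10.08 and 10.86 in Baja California against 7.34, 7.99 and 9.13 in Sonora. These ranges barely met, and the difference of means was 2.03 ± 0.198 (adjusted p = 1.61e-13 by limma). FBtr0161675 was higher in Baja California by 1.86 ± 0.235 (adjusted p = 1.93e-09 by limma). FBtr0171495 had 9.42, 9.80 and 10.75 in Baja California and 10.03, 10.72 and 11.78 in Sonora. It was lower in Baja California, at -0.91 ± 0.207 (adjusted p = 0.000674 by limma), and so was FBtr0169533, at -0.48 ± 0.130 (adjusted p = 0.00534 by limma).

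At 18 h, FBtr0171495 had turned round. Its levels were 8.04, 10.39 and 11.34 in Baja California and 7.29, 9.16 and 10.33 in Sonora. The gap was 1.05 ± 0.202 with Baja California above (adjusted p = 3.56e-05 by limma). Its mean in Baja California was 11.75, 9.91 and 10.03 at 0, 9 and 18 h, so it did not fall after 9 h there. After 9 h the mean rose in San Quintin, from 9.87 to 10.50, and fell in Punta Prieta, from 9.95 to 9.56. FBtr0168050 had 8.49, 9.28 and 9.76 in Baja California and 7.53, 7.98 and 9.12 in Sonora, with a difference of 1.24 ± 0.120 (adjusted p = 1.59e-13 by limma). FBtr0169533 and FBtr0169399 were lower, at -0.44 ± 0.127 and -0.38 ± 0.0986 (adjusted p = 0.00364 and 0.00134 by limma).

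Whether the fall itself differed between regions was tested as the difference of the 18 h changes, where a positive value means a smaller fall in Baja California. All 100 members were lower at 18 h in both regions, with a median change of -0.69 in Baja California against -0.99 in Sonora. The fall was smaller in Baja California for 44 members and larger for 17, where 19.4% of all transcripts were called positive and 22.9% negative (42.3% in all), and the median difference was 0.27 against 0.0035 over all transcripts. The 18 h change of FBtr0171495 was -1.72 in Baja California against -2.88 in Sonora, and these differed by 1.15 ± 0.290 (adjusted p = 0.00285 by limma). That of FBtr0168050 was -0.36 against -1.17, and these differed by 0.82 ± 0.172 (adjusted p = 0.000801 by limma). FBtr0161675 went the other way, with -2.22 in Baja California against -0.65 in Sonora and a difference of -1.57 ± 0.329 (adjusted p = 0.000761 by limma), which kept its sign and call without the 2 doubted Punta Prieta arrays (adjusted p = 1.75e-07 by limma). FBtr0166497 had -2.21 against -0.91 and differed by -1.31 ± 0.345 (adjusted p = 0.00404 by limma). At 9 h the same test called 0 members (limma; smallest adjusted p = 0.114; 32 with an unadjusted p under 0.05), where 0.234% of all transcripts were called. Weighting the arrays by their quality raised this to 43.

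The direction of this difference moved with the shared axis. The axis scored 9.49 ± 22.7 at 0 h and 1.65 ± 17.0 at 18 h in Baja California (SD, n = 16 each), and 18.2 ± 15.4 (n = 15) and -18.6 ± 23.8 (n = 17) at the same hours in Sonora. With it removed, 0 members had a smaller fall in Baja California and 18 a larger one, the median difference was -0.08, and FBtr0171495 (adjusted p = 0.0776 by limma), FBtr0168050 (0.0577) and FBtr0166497 (0.149) lost their calls, while FBtr0161675 kept its own. The count of 61 was 14 without replicate 1 and 24 without replicate 2. Without Punta Prieta organ pipe arrays 3 and 4 at 0 h it was 63, with 45 smaller and 18 larger falls. The higher level in Baja California averaged over hours did not turn with the axis removed, at 52 members higher and 9 lower, and at 18 h alone 23 were higher and 11 lower. The shares of all transcripts called with the axis removed or arrays left out are not given. These counts therefore cannot be set against the rest of the table.

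**Figure D5:**
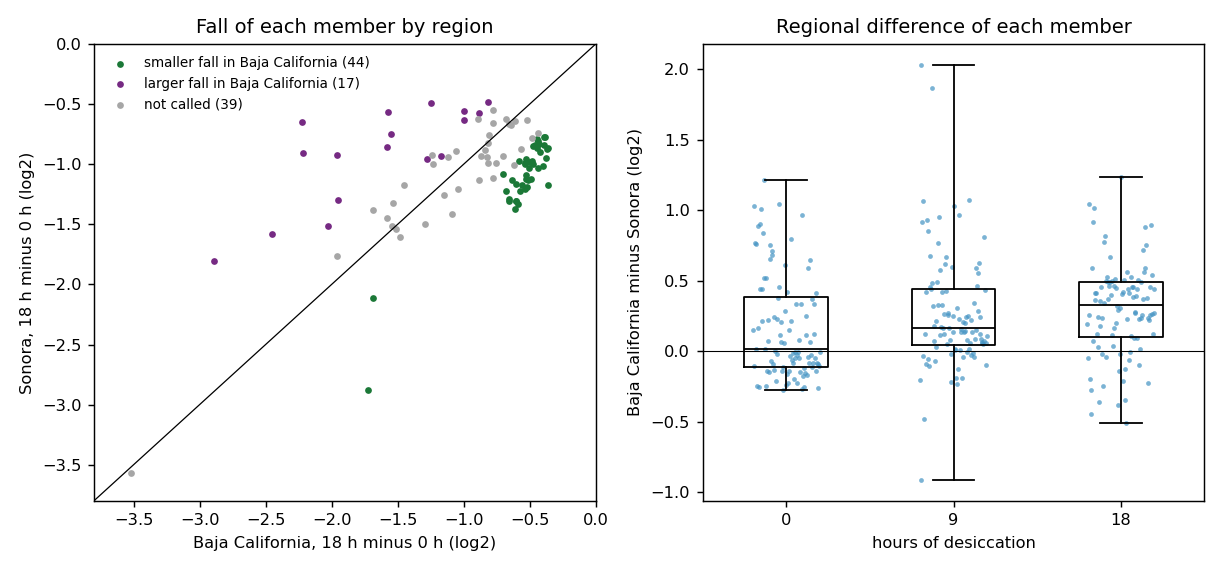
Left, 18 h minus 0 h change (log2) of each member in Baja California (horizontal axis) and Sonora (vertical axis), coloured by the limma call on the difference, with the line of equal change; 44 members lie on the side of a smaller fall in Baja California and 17 on the other. Right, Baja California minus Sonora difference (log2) of each member at 0, 9 and 18 h (boxes, quartiles; whiskers, full range), with medians of 0.02, 0.16 and 0.33.

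Inside Baja California, 16 members were higher and 7 lower in San Quintin than in Punta Prieta over the 3 hours, where 11.5% of all transcripts were called higher and 4.83% lower; the median difference of 0.12 turned to -0.03 with the shared axis removed, with which 5 were higher and 9 lower. The widest gap was that of FBtr0161675, with a lowest, median and highest level of 7.99, 9.37 and 11.40 in San Quintin and of 8.51, 9.84 and 13.44 in Punta Prieta, and a difference of -1.24 ± 0.192 (adjusted p = 3.85e-06 by limma), which was -1.52 without the doubted arrays. In Punta Prieta its group mean was 13.01 at 0 h on agria, the highest of all 24 groups. On organ pipe the 4 arrays at 0 h read 12.73, 12.90, 9.84 and 8.96, with a mean of 11.11 that was 12.82 without the doubted arrays, which are the last 2. FBtr0166497 was lower in San Quintin, at -0.94 ± 0.202 (adjusted p = 0.000723 by limma). FBtr0173521, at 8.08, 8.83 and 9.69 in San Quintin and 7.38, 8.45 and 9.13 in Punta Prieta, was higher by 0.46 ± 0.0931 (adjusted p = 0.000352 by limma), and FBtr0171495 by 0.47 ± 0.169 (adjusted p = 0.0435 by limma). The count of 23 was 13, 10 and 15 without replicates 1, 2 and 3, 64 with array weights and 28 without the 2 doubted Punta Prieta arrays.

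The 18 h change differed between these populations in 4 members, where 0.64% of all transcripts were called. FBtr0161675 fell less in San Quintin, with means of 9.52, 10.24 and 8.34 at 0, 9 and 18 h, than in Punta Prieta, with 12.06, 10.97 and 8.79; the difference was 2.09 ± 0.465 (adjusted p = 0.00743 by limma), and 2.94 without the 2 doubted arrays (adjusted p = 1.06e-07 by limma). In San Quintin this member was higher at 9 h than at 0 h, so its course there was not progressive. Nor was it in Sonora, where its mean was higher at 18 h than at 9 h. These means were 8.98 against 8.70 in Punta Onah and 8.87 against 8.78 in Organ Pipe National Monument. Of the 4 populations, only Punta Prieta had both steps downward. FBtr0165237 and FBtr0174631 fell further in San Quintin, with differences of -1.18 ± 0.287 and -0.83 ± 0.209 (adjusted p = 0.0208 and 0.0303 by limma). The count was 1, 2 and 1 without replicates 1, 2 and 3, 2 without the second order arrays and 8 without Punta Prieta organ pipe arrays 3 and 4 at 0 h. FBtr0161675 lost its call without replicate 1 (adjusted p = 0.122 by limma) and replicate 2 (0.138), and FBtr0165237 and FBtr0174631 lost theirs under several settings.

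Inside Sonora, Organ Pipe National Monument lay above Punta Onah in 15 members and below it in 10, where 8.91% of all transcripts were called higher and 6.35% lower, and the median difference was 0.02. FBtr0168230 showed a steady gap: its median level was 10.10, 9.62 and 9.10 at 0, 9 and 18 h in Organ Pipe National Monument, against 10.89, 10.25 and 9.87 in Punta Onah, and the difference over hours was -0.73 ± 0.0625 (adjusted p = 7.93e-16 by limma). FBtr0166497 differed by -0.87 ± 0.199 (adjusted p = 0.000756 by limma). FBtr0171495 was higher in Organ Pipe National Monument by 0.82 ± 0.167 (adjusted p = 0.000143 by limma) and FBtr0164122 by 0.42 ± 0.0965 (adjusted p = 0.000806 by limma). The count of 25 was 11 without replicate 1 and 48 with array weights.

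The 18 h change differed inside Sonora in 8 members, all with a smaller fall in Organ Pipe National Monument, where 0.805% of all transcripts were called in either direction and 0.64% in this one. For FBtr0167057, the 0 h arrays ran from 7.63 to 10.32 (median 8.12) in Organ Pipe National Monument, while the lowest array in Punta Onah was at 9.55 and the median at 10.52; at 18 h the medians were 7.62 and 7.55. Its difference of change was 2.12 ± 0.391 (adjusted p = 0.000338 by limma), and that of FBtr0166945 was 1.82 ± 0.419 (adjusted p = 0.00921 by limma). Both gaps lay at 0 h, and in both the agria group of Organ Pipe National Monument was the lowest at that hour. The organ pipe group of the same population came next, at 9.25 for FBtr0167057 and 9.47 for FBtr0166945. Without the agria arrays of this population 0 of the 8 calls were made, at differences of 1.47 for FBtr0167057 (adjusted p = 0.463 by limma) and 0.97 for FBtr0166945 (adjusted p = 0.769 by limma). The count was 4, 2 and 4 without replicates 1, 2 and 3, and 16 with array weights.

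Few members were called for the rearing cactus. Over all populations and hours 1 member was called, where 0.0138% of all transcripts were. FBtr0174959 averaged 11.12 on organ pipe and 10.87 on agria, higher by 0.26 ± 0.0505 (adjusted p = 0.0185 by limma), and its arrays overlapped, from 9.80 to 12.27 on organ pipe and from 10.02 to 11.89 on agria. The call ended without replicate 2, 3 or 4, without the second order arrays, and when Organ Pipe National Monument on agria was left out, with differences of 0.21 to 0.29. The median difference of the members was 0.03.

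No member was called for an effect of the cactus on the 18 h change. The difference of the changes, organ pipe minus agria, was below 0 in 95 members, against 54.9% of all transcripts, with a median of -0.21 against -0.01; the median SE of a member's difference was 0.15. Limma called 0 members and 0% of all transcripts, with a smallest adjusted p of 0.282 and 28 members at an unadjusted p under 0.05. Under array weights 7 members were called, all negative. The next 100 transcripts in rank also had 95 negative differences. With the shared axis removed the median was -0.09 and 69 members were negative. The axis scored 19.2 ± 15.8 on organ pipe and 8.52 ± 21.9 on agria at 0 h, and -10.7 ± 26.8 and -7.12 ± 19.8 in the same order at 18 h (SD; n = 15, 16, 15 and 18).

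The effect of the cactus on the timing was tested inside each population after the group means had been seen. For the 9 h change, the median difference of organ pipe minus agria was -0.35 for San Quintin, -0.20 for Punta Prieta, 0.48 for Organ Pipe National Monument and -0.38 for Punta Onah. For the change between 9 and 18 h it was 0.05, 0.22, -0.55 and 0.10 in the same order of populations. None of these 8 comparisons called a member in limma (0 of 100 in each; 1 to 47 with an unadjusted p under 0.05; smallest adjusted p = 0.130, in Organ Pipe National Monument between 9 and 18 h). Of all transcripts, the 9 h comparison called 0.0206% in San Quintin and 0.0551% in Organ Pipe National Monument, the later one called 0.00688% and 0.0138%, and both called 0% in Punta Prieta and Punta Onah. With the shared axis removed, the 9 h medians were -0.01, 0.01, 0.08 and -0.24, and 0 members were called.

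Deviations of single arrays from their group mean were not used by the rule, and they show how far the members vary together when time, population and cactus are held fixed. The correlation of a member with the mean of the other 99 over the 95 arrays had a median of 0.67 and was below 0 for 3 members. The arrays share the same labelling and normalization, and the mean of the members correlated with the shared axis at r = 0.853 inside groups. With the axis removed, the median correlation was 0.39. With the axis kept in, the correlation with the members' mean had a median of 0.14 among the other 14428 transcripts. Of these, 1100 lay above the members' median of 0.67. Their correlation with the axis removed is not given, so the 0.39 has no value to stand beside it. FBtr0172194 and FBtr0161521 followed the other members most closely, at 0.88 and 0.87, and had changed by -0.98 and -0.94 at 18 h. FBtr0163080 and FBtr0166497 followed them least, at -0.11 and -0.13, although they had changed by -1.44 and -1.56; with the axis removed both lay near the rest, at 0.39 and 0.41. Pairs of members ran from -0.46 to 0.95 with a median of 0.34.

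The members lay mostly in the middle of the range of signal, which also depends on the probes. With all transcripts ranked by mean level into 5 bins of equal size, 5 members were in the dimmest bin, 30, 53 and 9 in the bins that followed and 3 in the brightest. Single values of members ran from 6.24 to 13.85, in a table whose values ran from 4.52 to 15.65. Their SD within groups had a median of 0.31, against 0.20 over all transcripts. No detection calls were used, so how far the lowest 18 h values lie above background is unknown, and the fall of a dim member may be understated.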

How the data were processed

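Expression was measured on 95 NimbleGen 12-plex arrays labelled with Cy3. The authors deposited 1 log2 value per transcript and array, made with RMA (version not given in the sources used here), per the submitters' processing notes. Each column was matched to its sample by the label, with 0 left over; 4 arrays were from a later, second order, per a deposited note. No 2 arrays held identical values. The number of arrays limits the precision.

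With limma 3.58.1 (R 4.3.3), a mean was fitted to each of the 24 groups on the deposited log2 scale (71 residual degrees of freedom, no filter, covariate or block). Comparisons were contrasts of group means with equal weight to diets within a population and populations within a region. P-values are two-sided, adjusted by Benjamini-Hochberg over 14528 transcripts, and a call is an adjusted p under 0.05. The fit and the ranking were tested on simulated data with independent noise in each transcript. Such data hold no shared axis, so that test does not bear on calls that move with the axis.

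The members, comparisons, gene lists and alternatives were chosen with earlier results of these data known. Because 0 of the identifiers occur among the 15130 genes of the reference table, gene lists and cell type markers could not be used. Named transcripts are the 2 highest in rank, those next to the edge of the list, the 2 largest positive and 2 largest negative called differences per comparison, and the 2 members most and least correlated with the rest. FBtr0171495 is also drawn as the third in rank. The shared axis score of an array is the projection of its values on the first singular component of the within-group deviations, with its sign set to rise with the array's SD. The population distances used the 100 transcripts with the largest moderated F between populations, with an array's own group left out. Alternatives were a replicate block, median centring, quantile normalization, removal of the shared axis, array weights, a filter on the dimmest of 5 signal bins, and leaving out doubted arrays or each replicate.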

Additional observations from a re-analysis of the deposited data

Results flagged for a closer look

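Of the groups of 4 or 5 arrays, 63 tests were run for an array far from the others of its group, where chance alone gives about 1 in 20. The mean over the members was 10.12 in Organ Pipe National Monument organ pipe array 2 at 0 h, with the other arrays of that group at 10.33 to 10.34, and 9.67 in San Quintin organ pipe array 3 at 9 h, with the others at 9.98 to 10.04. The remaining cases were all of FBtr0167057, the member that spread most among the 2 of highest rank. It stood at 9.13 in Punta Onah agria array 3 at 9 h (others 7.94 to 8.08), at 8.62 in Organ Pipe National Monument agria array 4 at 18 h (others 7.30 to 7.66) and at 8.01 in San Quintin agria array 3 at 18 h (others 7.35 to 7.46). It stood at 8.61 in San Quintin organ pipe array 4 at 0 h, where the others lay between 10.70 and 11.05.

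The 18 h change differed between groups by a test of the difference itself in 3 comparisons. Between Baja California and Sonora it did so in 61 members, with differences of 1.15 for FBtr0171495, 0.82 for FBtr0168050, -1.57 for FBtr0161675 and -1.31 for FBtr0166497. Between San Quintin and Punta Prieta it did so in 4 members, with 2.09 for FBtr0161675, -1.18 for FBtr0165237 and -0.83 for FBtr0174631. Between Organ Pipe National Monument and Punta Onah it did so in 8 members, with 2.12 for FBtr0167057 and 1.82 for FBtr0166945.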

How the results depend on the processing

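No named difference reversed under the alternatives run; of their values, 415 kept their call and 47 lost it. With the shared axis removed, 34 members were called between Baja California and Sonora at 18 h (66 before), 18 in the 18 h change (61), 1 in the 9 h change (0) and 14 between San Quintin and Punta Prieta over all hours (23), and the regional medians at 18 h and in the 18 h change were 0.08 and -0.08. With array weights, 62 were called between the regions at 9 h (36), 43 in the 9 h change (0), 7 for cactus in the 18 h change (0), 4 for cactus over all hours (1), 16 and 48 between Organ Pipe National Monument and Punta Onah in the 18 h change and over all hours (8 and 25), and 64 between San Quintin and Punta Prieta over all hours (23). Without the second order arrays, 1 was called in the regional 9 h change, 0 for cactus over all hours and 2 between San Quintin and Punta Prieta in the 18 h change (4). Without the agria arrays from Organ Pipe National Monument, 0 were called for cactus over all hours and 0 inside Sonora in the 18 h change. Without Punta Prieta organ pipe arrays 3 and 4 at 0 h, 8 were called between San Quintin and Punta Prieta in the 18 h change. The cause of these shifts was not tested. Shares of all transcripts called under the alternatives are not given, so whether the whole table moved with the members is not shown. Leaving out 1 replicate number at a time, the regional counts were 22 to 35 at 0 h, 29 to 36 at 9 h, 43 to 69 at 18 h, 44 to 57 over all hours, 0 to 2 in the 9 h change and 14 to 63 in the 18 h change. Counts inside Sonora were 2 to 7 in the 18 h change and 11 to 26 over all hours, those between San Quintin and Punta Prieta 1 to 4 and 10 to 25, and those for cactus 0 to 1 in both. Of the members, 79 to 94 were then still among the 100 that ranked highest, against 64 with the shared axis removed, 66 without agria from Organ Pipe National Monument, 78 with array weights, 83 with quantile normalization and 93 with median centring. No scaling moved the median 18 h change of all transcripts beyond -0.05 or 0.04.

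Same replicate numbers did not pair arrays: 355 of 1039 same-numbered pairs from different groups had a correlation of deviations over 0.1, with a mean of -0.0096 against 0.0034 for pairs of different number. With the replicate block, 61 members were called in the regional 18 h change, 67 at 18 h, 58 over all hours, 7 inside Sonora and 3 inside Baja California in the 18 h change, and 94 members stayed in the list; FBtr0174631 lost its call (-0.81; adjusted p = 0.0528 by limma).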
